A study of Mus musculus with 8 samples.

Results

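TRBV19 is the mouse T-cell receptor (TCR) beta variable segment also known as V beta 6. Its receptors were taken here as every TRB chain whose V call in the contig tables was TRBV19, and no joint call held it. They came to 344 chains in 344 cells of the 2920 cells with a beta chain, and to 114 of the 1649 clonotypes with one. A clonotype is a set of cells to which Cell Ranger gave the same receptor. Members were selected on the measured V call, and the segment was singled out with its share of cells in view, so every share of TRBV19 below is a description and no test was made.

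Brain immune cells sorted on CD45 were profiled from B6 mice with traumatic brain injury (TBI) by controlled cortical impact. Injury was at 13 to 15 weeks of age in the young groups and at 80 to 82 weeks in the aged ones. Mice received 300 µg of aCD49d Ab or isotype control, first 2 h after TBI and then every 2 weeks. Brains were collected 2 months after TBI, and all 4 groups carried the injury. Each of YTBI_Isotype, YTBI_aCD49d, ATBI_Isotype and ATBI_aCD49d was 1 library made from 2 pooled mice, so a condition, a library and a single mouse with a large clone cannot be told apart. The libraries held 252, 562, 1004 and 1102 cells with a beta chain in that order, with 17.1, 13, 10.2 and 16.4 TCR UMIs (unique molecules) per cell. The tables hold receptor chains only and the transcriptomes of these groups were not analysed here, so CD4, CD8 and T-cell identity were not checked against markers.

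A beta chain is made by joining 1 V, 1 D and 1 J segment in each developing T cell, with bases trimmed from the ends and added between them. The join is the complementarity-determining region 3 (CDR3), the loop that mostly meets the peptide, whereas the other loops of the beta chain are written in the V segment itself. In mice, mucosal-associated invariant T (MAIT) cells, which recognise vitamin B metabolites on MR1, use a TRAV1 and TRAJ33 alpha chain mostly with TRBV19 or TRBV13. Most TRBV19 cells of a mouse are nevertheless conventional T cells with other alpha chains.

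Trbv19 lies on the plus strand of chromosome 6 at chr6:41178375-41179048 (GRCm38, GENCODE vM21), with exon 1 at chr6:41178375-41178637 and exon 2 at chr6:41178746-41179048. In all 344 chains the 270 bases from framework 1 to framework 3 were identical to exon 2, in a single distinct sequence. The receptors therefore differed from each other in the CDR3, in the J segment and in the alpha chain. The end of exon 2 at chr6:41179019-41179068 is shown with the 16 germline bases of the CDR3 in capitals. The lower-case bases after them begin with cacagtg, the 7-base recombination signal heptamer.
Trbv19 germline end: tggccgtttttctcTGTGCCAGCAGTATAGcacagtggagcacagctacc

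The CDR3 of the largest TRBV19 clonotype of each library, and of the second in each aged library, are shown. The clones of 106 and 51 cells held 84.0% of the TRBV19 cells of ATBI_Isotype. The clone of 46 cells held 47.9% of those of ATBI_aCD49d. Capitals mark the bases that matched neither the germline V end nor the J segment, D bases included.
YTBI_Isotype, TRBJ2-3, 3 cells: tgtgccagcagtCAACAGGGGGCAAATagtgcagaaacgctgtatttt
YTBI_aCD49d, TRBJ2-7, 5 cells: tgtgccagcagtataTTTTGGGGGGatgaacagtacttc
YTBI_aCD49d, TRBJ2-7, also 5 cells: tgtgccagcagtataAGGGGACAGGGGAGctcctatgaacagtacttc
ATBI_Isotype, TRBJ1-4, 106 cells: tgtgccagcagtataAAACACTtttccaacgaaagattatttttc
ATBI_Isotype, TRBJ2-1, 51 cells: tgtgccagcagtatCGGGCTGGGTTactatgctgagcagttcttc
ATBI_aCD49d, TRBJ1-1, 46 cells: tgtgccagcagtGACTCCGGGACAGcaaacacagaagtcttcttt
ATBI_aCD49d, TRBJ1-1, 8 cells: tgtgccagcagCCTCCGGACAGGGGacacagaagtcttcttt

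TRBV19 was on 18.6% of the cells with a beta chain in ATBI_Isotype, the highest of the 4 libraries, and on 6.23% in YTBI_aCD49d, the lowest. By cells the share was 26 of 252 in YTBI_Isotype (10.3%, exact Clopper-Pearson 95% interval 6.85 to 14.8) and 35 of 562 in YTBI_aCD49d (6.23%, 4.38 to 8.56). It was 187 of 1004 in ATBI_Isotype (18.6%, 16.3 to 21.2) and 96 of 1102 in ATBI_aCD49d (8.71%, 7.11 to 10.5). These intervals cover counting error only. They count the cells of a clone singly although these are not independent, so they are too narrow and describe the libraries, not the conditions.

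By clonotypes the order was different. TRBV19 held 24 of 220 clonotypes in YTBI_Isotype (10.9%, 7.12 to 15.8), 25 of 453 in YTBI_aCD49d (5.52%, 3.60 to 8.04), 25 of 449 in ATBI_Isotype (5.57%, 3.64 to 8.11) and 40 of 527 in ATBI_aCD49d (7.59%, 5.48 to 10.2). ATBI_Isotype, first by cells, stood beside YTBI_aCD49d at the low end by clonotypes. Among the 22 V calls, TRBV19 ranked 2nd by cells but 9th by clonotypes in ATBI_Isotype, and 2nd by both in YTBI_Isotype. In YTBI_aCD49d it ranked 5th by cells and 8th by clonotypes, and in ATBI_aCD49d it ranked 4th by both.

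Leaving out the largest TRBV19 clonotype of each library brought ATBI_Isotype down to 81 of 898 cells (9.02%, 7.23 to 11.1) and ATBI_aCD49d to 50 of 1056 (4.73%, 3.53 to 6.19). The young libraries moved little, to 23 of 249 cells (9.24%, 5.95 to 13.5) in YTBI_Isotype and 30 of 557 (5.39%, 3.66 to 7.60) in YTBI_aCD49d. Without the 2 largest TRBV19 clonotypes, a step chosen after the clone sizes were seen, the shares were 8.87%, 4.53%, 3.54% and 4.01% in the order YTBI_Isotype, YTBI_aCD49d, ATBI_Isotype and ATBI_aCD49d. ATBI_Isotype was then the lowest of the 4.

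**Figure D1:**
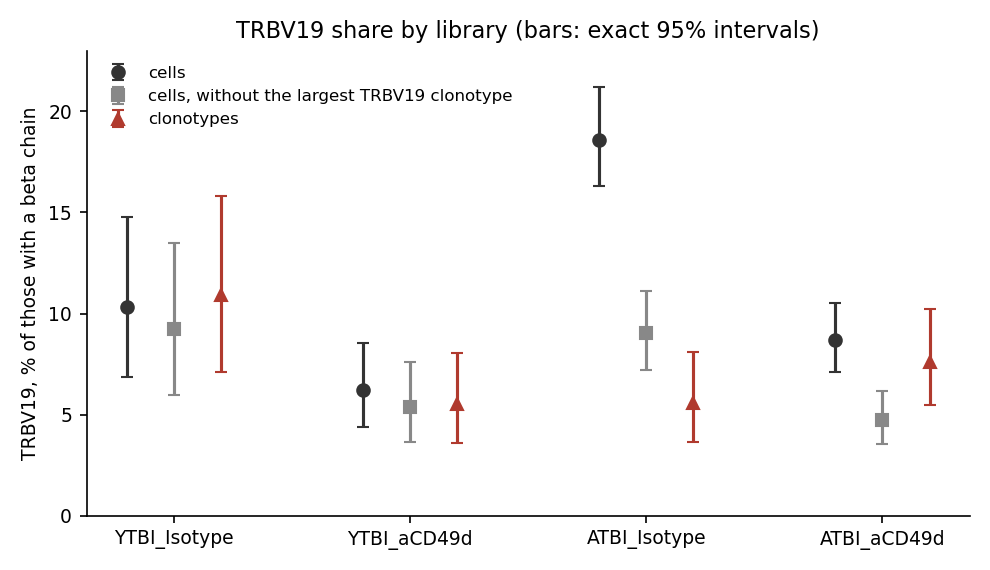
TRBV19 share of each library in percent, by cells (circles), by cells without the largest TRBV19 clonotype (squares) and by clonotypes (triangles), with exact 95% intervals for counting error. The circle of ATBI_Isotype at 18.6% stands above every other point, while its triangle at 5.57% lies near that of YTBI_aCD49d at 5.52%.

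The aCD49d Ab and isotype libraries were compared within each age. In aged mice the share of cells was 9.91 percentage points higher under isotype than under aCD49d Ab (Newcombe 95% interval 6.93 to 12.9), and in young mice 4.09 points higher (-0.0855 to 8.89). Between ages, ATBI_Isotype was 8.31 points above YTBI_Isotype (3.28 to 12.6) and ATBI_aCD49d 2.48 points above YTBI_aCD49d (-0.340 to 5.08). These intervals over cells have the same limit, and no difference was called from them. Without the largest TRBV19 clonotype of each library the aged pair differed by 4.29 points (1.97 to 6.67) and the isotype pair by -0.217 points (-4.88 to 3.67), and without the 2 largest by -0.466 points (-2.25 to 1.38) and -5.33 points (-9.73 to -1.78). The aCD49d Ab pair also changed sign, to -0.651 points without the largest (-3.17 to 1.61) and -0.521 without the 2 largest (-2.88 to 1.57). The young pair differed by 4.33 points with beta chains of at least 2 UMIs (0.119 to 9.17) and by 4.34 without the 2 largest TRBV19 clonotypes (0.50 to 8.88).

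By clonotypes, YTBI_Isotype was 5.39 points above YTBI_aCD49d (0.836 to 10.6), whereas ATBI_Isotype was 2.02 points below ATBI_aCD49d (ATBI_Isotype minus ATBI_aCD49d -2.02, -5.26 to 1.28). Between ages, ATBI_Isotype minus YTBI_Isotype was -5.34 points (-10.6 to -0.775) and ATBI_aCD49d minus YTBI_aCD49d 2.07 points (-1.22 to 5.30). The larger differences were of the pairs with YTBI_Isotype. It was the smallest library, where 1 cell made up 0.397% of the cells with a beta chain.

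The 3 V segments nearest to TRBV19 in their share of clonotypes over the 4 libraries, by the summed absolute difference, were TRBV16 (6.38 points), TRBV5 (8.02) and TRBV13-1 (8.52). TRBV16 took 6.36%, 5.96%, 6.01% and 6.64% of clonotypes in YTBI_Isotype, YTBI_aCD49d, ATBI_Isotype and ATBI_aCD49d. By cells it took 5.56%, 5.34%, 4.18% and 4.08%, so it did not share the high cell share of TRBV19 in ATBI_Isotype. TRBV5 was at 4.28% and TRBV13-1 at 3.49% of cells in ATBI_Isotype. TRBV14, outside these 3, did show it, with 20.1% of ATBI_Isotype cells, the only V call above TRBV19, and 3.56% of clonotypes.

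The largest TRBV19 clones were in the aged libraries. In YTBI_Isotype, 23 of 24 TRBV19 clonotypes had 1 cell and the largest had 3. In YTBI_aCD49d, 21 of 25 had 1 cell and the largest had 5. In ATBI_Isotype, 19 of 25 had 1 cell, while the clones of 106 and 51 cells together held 157 of the 187 TRBV19 cells (84.0%). In ATBI_aCD49d, 34 of 40 had 1 cell, and the clone of 46 cells held 47.9% of the TRBV19 cells.

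Clonotypes of 2 or more cells held 11.5% of the TRBV19 cells of YTBI_Isotype and 40.0% of those of YTBI_aCD49d. For ATBI_Isotype the value was 89.8% and for ATBI_aCD49d 64.6%. Among beta chains of other V segments it was 20.5%, 25.2%, 57.6% and 58.7%, young libraries first and isotype before aCD49d Ab. The value in YTBI_Isotype rests on 3 cells, and those of the aged libraries rest on the large clones. Outside clonotypes of 15 or more cells, a step chosen after the clone sizes were seen, it was 11 of 30 TRBV19 cells in ATBI_Isotype (36.7%, 19.9 to 56.1) against 39.2% of the others (35.1 to 43.3). In ATBI_aCD49d it was 16 of 50 (32%, 19.5 to 46.7) against 36.6% (32.9 to 40.5). With the large clones TRBV19 was thus above the rest in both aged libraries, though in ATBI_aCD49d the intervals overlapped (54.2 to 74.1 against 55.6 to 61.8). Without them it was below the rest in both, with overlapping intervals.

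**Figure D2:**
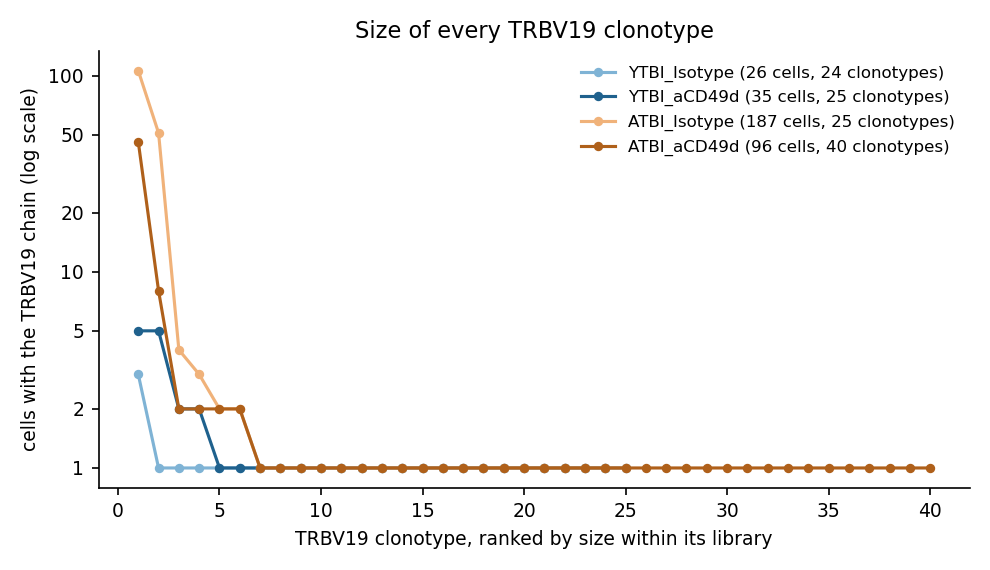
Every TRBV19 clonotype, ranked by size within its library, against its number of cells on a log scale; points of 1 cell overlap between libraries. The curves of the aged libraries start at 106 and 46 cells and those of the young libraries at 3 and 5.

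The 106-cell clone made up 10.6% of the ATBI_Isotype cells with a beta chain (8.72 to 12.6), and 3 more cells of the deposited clonotype had its alpha chain without a beta chain. The 51-cell clone made up 5.08% (3.81 to 6.63). The 46-cell clone made up 4.17% of ATBI_aCD49d (3.07 to 5.53), and the next TRBV19 clone there, with 8 cells, 0.726% (0.314 to 1.43). In the young libraries the largest TRBV19 clones reached 1.19% of YTBI_Isotype (0.246 to 3.44) and 0.890% of YTBI_aCD49d (0.289 to 2.06).

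The 3 large clones had different J segments and different alpha chains. The 106-cell clone joined TRBJ1-4 with 7 bases between V and J, the 51-cell clone TRBJ2-1 with 11, and the 46-cell clone TRBJ1-1 with 13. All 3 had a CDR3 of 15 residues, of which 6 were identical in all 3. In residues 6 to 10 the 106-cell clone had lysine, histidine, phenylalanine, serine and asparagine, the 51-cell clone glycine, leucine, glycine, tyrosine and tyrosine, and the 46-cell clone serine, glycine, threonine, alanine and asparagine. The basic residues lysine, arginine and histidine numbered 3 in the 106-cell clone and 0 in each of the others.

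No TRBV19 CDR3 was found in more than 1 library, by nucleotides or by amino acids, among 113 distinct sequences. Among other V segments, 1 of 1564 combinations of V segment and CDR3 nucleotides and 6 of 1551 by amino acids were in 2 or more libraries. No 2 TRBV19 sequences of equal length differed at a single base or a single residue. Within ATBI_aCD49d, 2 deposited clonotypes of 1 cell each had the same TRBV19 and TRBJ1-6 CDR3 and the same TRAV6-7-DV9 and TRAJ38 segments, and were counted as 2 here. Of 2985 barcodes, 1 was found in 2 libraries and it carried no TRBV19 chain.

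J segments supply the end of the CDR3, and each TRBJ cluster lies beside its own constant gene. TRBV19 used all 12 J segments called in the data. TRBJ2-7 was the most frequent, in 30 of 114 clonotypes (26.3%, 18.5 to 35.4), against 18.8% of the other beta clonotypes (16.8 to 20.8). TRBJ1-1 followed with 15 (13.2%, 7.56 to 20.8, against 10.1%) and TRBJ2-5 with 14 (12.3%, 6.88 to 19.7, against 10.6%). TRBJ1-4, the J of the 106-cell clone, was in 4 TRBV19 clonotypes (3.51%, 0.964 to 8.74) against 8.70% of the others (7.34 to 10.2).

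The J profile of TRBV19 clonotypes was close to that of the rest. For TRBJ2-7 the intervals of TRBV19 and of the other clonotypes overlapped. TRBJ2-7 was the most frequent TRBV19 partner in each library, with 6 of 24 clonotypes in YTBI_Isotype, 9 of 25 in YTBI_aCD49d, 7 of 25 in ATBI_Isotype and 8 of 40 in ATBI_aCD49d. TRBJ2 segments together took 66.7%, 72.0%, 64.0% and 62.5% of TRBV19 clonotypes in that order, and 75 of 114 over all libraries (65.8%, 56.3 to 74.4, against 63.4%, 60.9 to 65.8). The intervals of the 4 differences in this share within an age or a treatment were wide, with a lowest bound of -32.6 points.

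By cells the balance turned in the aged libraries, with TRBJ2 on 38.5% of TRBV19 cells in ATBI_Isotype and on 27.1% in ATBI_aCD49d. TRBJ1-4 was on 107 of the 187 TRBV19 cells of ATBI_Isotype, and TRBJ1-1 on 61 of the 96 of ATBI_aCD49d. These are the J segments of the 106-cell and 46-cell clones. Every TRBV19 chain with a called constant gene had the one of its own cluster, with TRBC1 on 199 TRBJ1 chains and TRBC2 on 144 TRBJ2 chains, and 1 TRBJ1 chain had none called.

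**Figure D3:**
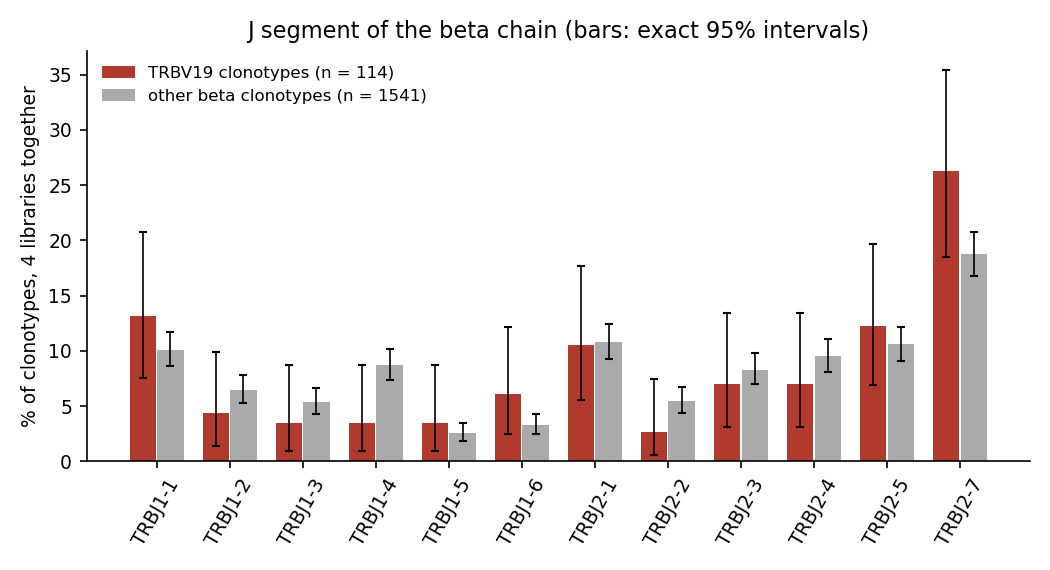
Share of clonotypes with each TRBJ segment in percent, for TRBV19 (red) and all other V segments (grey) over the 4 libraries together, with exact 95% intervals. TRBJ2-7 leads in both sets at 26.3% and 18.8%, and the TRBV19 intervals are wide.

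Cell Ranger called a D segment in 33 of the 114 TRBV19 clonotypes, TRBD1 in 21 and TRBD2 in 12. By these calls TRBD1, which lies upstream of both TRBJ clusters, was joined to TRBJ1 in 6 clonotypes and to TRBJ2 in 15. The calls are not certain, since a TRBJ2-1 clonotype of ATBI_aCD49d and another of YTBI_aCD49d, both called TRBD1, held GGGACTGGGG. That stretch is in germline TRBD2 and not in TRBD1. TRBD2 lies between the clusters and can join only TRBJ2 by deletion, and all 12 were with TRBJ2. In 101 of 114 clonotypes (88.6%) the inserted stretch held at least 5 consecutive bases of a germline D segment, so most joins without a call still held such a match. Added bases can match by chance, and how often they do was not tested.

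The median TRBV19 clonotype had lost 3 of the 16 germline V bases (binomial 95% interval of the median 3 to 4) and 3 J bases (3 to 3), and had 11 bases between them (10 to 12). The inserted stretch ranged from 3 to 20 bases. By library the medians were 10.5, 12, 11 and 10 bases in YTBI_Isotype, YTBI_aCD49d, ATBI_Isotype and ATBI_aCD49d, with intervals that overlapped. The V end was untrimmed in 17 of 114 clonotypes.

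The germline V end of TRBV19 encodes cysteine, alanine, serine, serine and isoleucine, followed by 1 base. All 114 clonotypes had the first 3 of these residues, and 88 (77.2%, 68.4 to 84.5) had serine at position 4, counted from the cysteine as 1. The germline codon itself was whole in 112 clonotypes at position 3 and in 78 at position 4, and the other serines there were rebuilt in the join. Isoleucine at position 5 was found in 42 of 114 TRBV19 clonotypes (36.8%, 28.0 to 46.4) and in 1 of 1541 other beta clonotypes (0.0649%). In 27 of the 42 its whole codon was the germline one, and in the other 15 it was another isoleucine codon.

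By library, isoleucine at position 5 was in 9 of 24 TRBV19 clonotypes in YTBI_Isotype (37.5%, 18.8 to 59.4), 10 of 25 in YTBI_aCD49d (40.0%, 21.1 to 61.3), 12 of 25 in ATBI_Isotype (48.0%, 27.8 to 68.7) and 11 of 40 in ATBI_aCD49d (27.5%, 14.6 to 43.9). These intervals overlapped. By cells it was on 9 of 26, 18 of 35, 171 of 187 and 14 of 96, so that ATBI_Isotype reached 91.4% and ATBI_aCD49d 14.6%. The 106-cell and 51-cell clones of ATBI_Isotype both have the isoleucine, from the germline codon in the first and from another codon in the second, and the 46-cell clone of ATBI_aCD49d has aspartate there. Proline was the next most frequent residue at position 5 with 17 of 114 clonotypes (14.9%, 8.93 to 22.8), and 10 of the 17 were in ATBI_aCD49d.

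At the J end, phenylalanine closed the CDR3 in all 114 clonotypes, preceded by tyrosine in 74 (64.9%, 55.4 to 73.6). Glutamate stood 3 residues before the last in 57 (50%, 40.5 to 59.5). Both residues are encoded by several TRBJ segments, and among other V segments they were at 61.3% and 38.8%.

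TRBV19 clonotypes had a median CDR3 of 14 residues in each library, counting both anchors, with a range of 11 to 17. The mean over clonotypes was 13.9 ± 1.26 residues (SD, n = 114) against 14 ± 1.41 (SD, n = 1541) for other beta clonotypes. Lengths of 13 and 15 residues are given because they stood out once the lengths had been seen. A CDR3 of 15 residues was in 17 of 114 TRBV19 clonotypes (14.9%, 8.93 to 22.8) against 25.5% of the others (23.3 to 27.8), and 13 residues in 29 (25.4%, 17.7 to 34.4) against 17.8% (16.0 to 19.9), and the intervals for 13 residues overlap. For 15 residues the library with the smallest gap was ATBI_Isotype, with 5 of 25 TRBV19 clonotypes against 96 of the others (22.5%).

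By cells, 15 residues was the commonest TRBV19 length, in 218 of 344 cells. It was on 160 of 187 cells in ATBI_Isotype and 53 of 96 in ATBI_aCD49d, but on 3 of 26 in YTBI_Isotype and 2 of 35 in YTBI_aCD49d. The 3 large clones gave most of these cells, and the median by cells was 15 in the aged libraries.

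**Figure D4:**
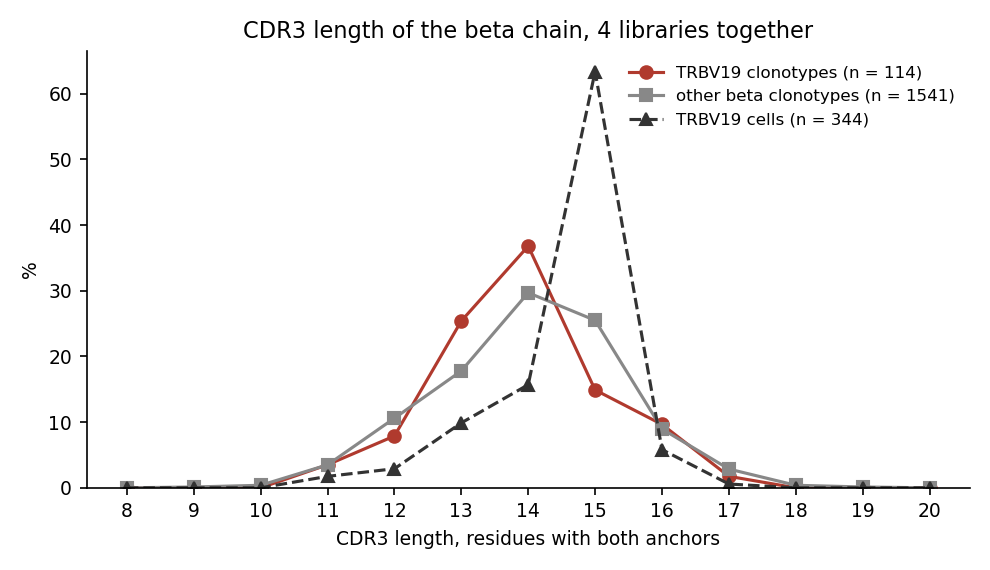
Distribution of beta CDR3 length in residues, as percent of TRBV19 clonotypes (red circles), of other beta clonotypes (grey squares) and of TRBV19 cells (black dashed triangles), over the 4 libraries together. The clonotype curves peak at 14 residues, and the cell curve at 15, where the clones of 106, 51 and 46 cells lie.

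An alpha chain was read in 255 of the 344 TRBV19 cells, in 99 of the 114 clonotypes, and 4 cells had 2. The 99 clonotypes used 47 TRAV and 35 TRAJ segments in 96 different pairs. TRBV19 receptors were thus spread over many alpha chains. The TRAV12 family was the most frequent, in 22 of 99 (22.2%, 14.5 to 31.7) against 142 of 1234 clonotypes with other V segments (11.5%, 9.78 to 13.4), and those intervals did not overlap. It was in 7, 3, 5 and 7 clonotypes of YTBI_Isotype, YTBI_aCD49d, ATBI_Isotype and ATBI_aCD49d. TRAV7 followed with 16 (16.2%, 9.53 to 24.9, against 12.6%) and TRAV6 with 14 (14.1%, 7.95 to 22.6, against 12.2%).

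Near-identical copies of TRAV segments can share a call, so single members are less certain than families. Within TRAV12, TRAV12D-3 was in 8 clonotypes (8.08%, 3.55 to 15.3, against 2.43%) and TRAV12-3 in 6 (6.06%, 2.26 to 12.7, against 0.891%). Of the 47 TRAV segments of TRBV19 receptors, these 2 lay above the rest without overlap and TRAV11 below it. Among TRAJ segments, TRAJ12 was in 9 (9.09%, 4.24 to 16.6, against 2.51%, 1.71 to 3.55), TRAJ22 in 8 (8.08%, 3.55 to 15.3, against 7.21%) and TRAJ56 in 7 (7.07%, 2.89 to 14, against 1.38%, 0.805 to 2.20). Of the 35 TRAJ segments of TRBV19 receptors, 3 had an interval that did not overlap that of the rest, TRAJ12 and TRAJ56 above it and TRAJ18 below it (2.02%, 0.246 to 7.11, against 10.5%, 8.80 to 12.3). TRAJ12 was in 0, 3, 4 and 2 clonotypes of YTBI_Isotype, YTBI_aCD49d, ATBI_Isotype and ATBI_aCD49d, and TRAJ56 in 2, 2, 1 and 2.

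The large clones paired TRAV7N-6 with TRAJ9 (106 cells), TRAV16 with TRAJ56 (51 cells) and TRAV17 with TRAJ33 (46 cells), and each had 1 alpha sequence in every cell that had any. Of the smaller ones, the 3-cell clone of YTBI_Isotype had TRAV12D-2 with TRAJ22, and the 5-cell clones of YTBI_aCD49d had TRAV13-4-DV7 with TRAJ50 and TRAV6N-7 with TRAJ12. The 2-cell clones of YTBI_aCD49d had TRAV12-1 with TRAJ56 and TRAV7N-6 with TRAJ37, and a 4-cell clone of ATBI_Isotype TRAV14D-1 with TRAJ5. In ATBI_aCD49d the 8-cell clone had TRAV3-3 with TRAJ27, and the 4 clones of 2 cells had TRAV16D-DV11 with TRAJ22, TRAV4D-4 with TRAJ4, TRAV12-2 with TRAJ28 and TRAV12-2 with TRAJ43. The alpha CDR3 of the large clones are shown with the bases that matched neither germline segment in capitals.
ATBI_Isotype, 106 cells, TRAV7N-6 and TRAJ9: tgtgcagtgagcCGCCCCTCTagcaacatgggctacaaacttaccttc
ATBI_Isotype, 51 cells, TRAV16 and TRAJ56: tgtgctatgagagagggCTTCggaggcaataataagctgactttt
ATBI_aCD49d, 46 cells, TRAV17 and TRAJ33: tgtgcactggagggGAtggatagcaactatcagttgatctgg

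How often the alpha chain was read varied between these clones. It was read in 22 of 26 TRBV19 cells in YTBI_Isotype (84.6%, 65.1 to 95.6), 29 of 35 in YTBI_aCD49d (82.9%, 66.4 to 93.4), 117 of 187 in ATBI_Isotype (62.6%, 55.2 to 69.5) and 87 of 96 in ATBI_aCD49d (90.6%, 82.9 to 95.6). Among cells with other beta chains it was 81.9%, 77.4%, 67.9% and 82.4%. ATBI_Isotype was lowest in both sets.

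Within ATBI_Isotype the alpha chain was read in 68 of 106 cells of the TRBJ1-4 clone (64.2%, 54.3 to 73.2) and 21 of 51 of the TRBJ2-1 clone (41.2%, 27.6 to 55.8), but in 28 of 30 other TRBV19 cells (93.3%, 77.9 to 99.2). In clonotypes of other V segments below 15 cells it was 69.8% (65.8 to 73.5). The low TRBV19 value was thus in its 2 large clones, while the 5 clones of other V segments with at least 15 cells in this library ranged from 54.5% (38.8 to 69.6), in a 44-cell TRBV1 clone, to 12 of 15 cells (51.9 to 95.7) in a TRBV14 clone. The larger TRBV14 clones were at 67.7% (57.5 to 76.7) and 60.3% (48.1 to 71.5). In ATBI_aCD49d the 46-cell clone had an alpha chain in 44 cells (95.7%, 85.2 to 99.5). The median beta UMI count was 4 in the 106-cell clone, 6 in the 51-cell clone and 8 in the 46-cell clone, and its part in alpha recovery was not tested.

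**Figure D5:**
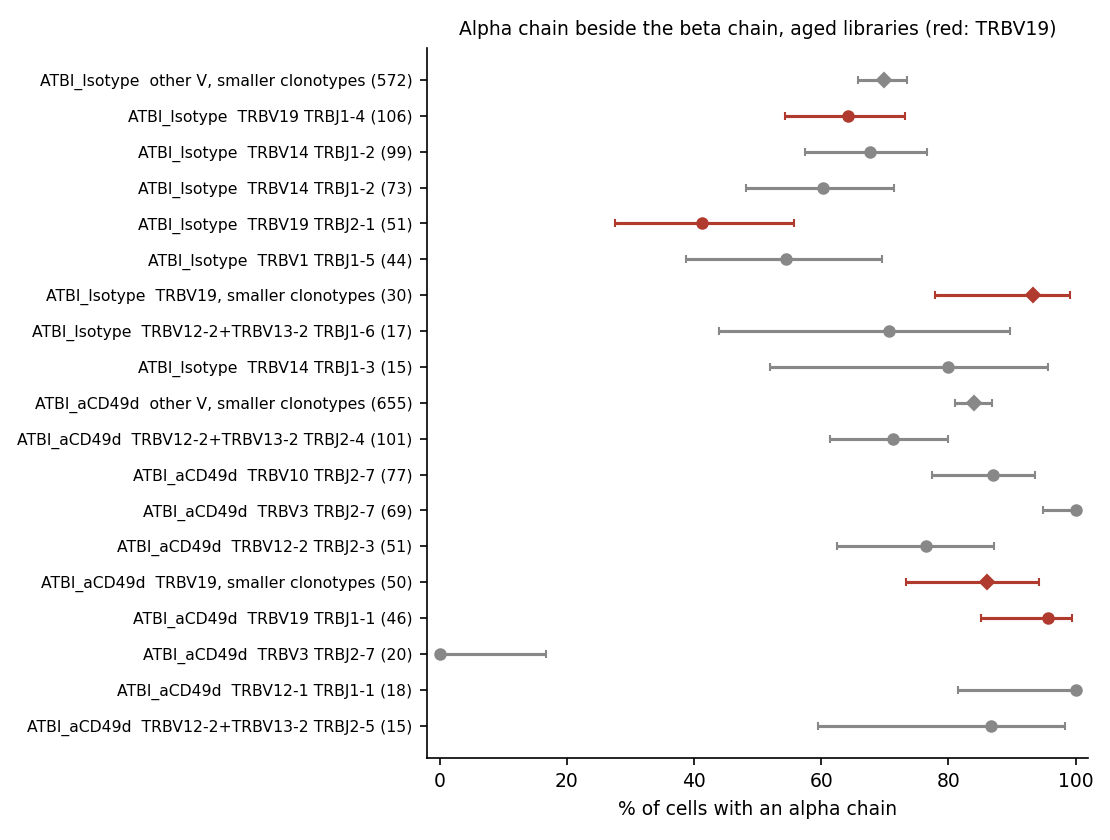
Percent of cells with an alpha chain beside the beta chain in the aged libraries, with exact 95% intervals, for each clonotype of at least 15 cells (circles) and for all smaller clonotypes together (diamonds); TRBV19 is red and cell numbers are in parentheses. In ATBI_Isotype the TRBV19 clones at 64.2% and 41.2% lie below the smaller TRBV19 clonotypes at 93.3%.

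TRBV19 chains themselves had a median of 12, 6, 5 and 8 UMIs in YTBI_Isotype, YTBI_aCD49d, ATBI_Isotype and ATBI_aCD49d, against 11, 9, 7 and 11 for other beta chains. They were lower than the rest in 3 of 4 libraries. In clonotypes of 1 cell the medians were 12, 6, 7 and 8.5 against 11, 9, 8 and 12. Chains with a single UMI were 0%, 2.86%, 3.74% and 0% of TRBV19 chains, against 1.69%, 0.943%, 1.57% and 0.584% of other beta chains.

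The clonotype tables carry a column of MAIT evidence, which was set against the alpha chains read in the same cells. All 114 TRBV19 clonotypes carried the evidence, on the gene of the beta chain, and none on the alpha chain. Over the data, 400 of 1693 clonotypes carried it, of which 114 held TRBV19 and 286 a TRBV13 member by a single call, 2 of them holding both, while 2 held neither and the 212 with only the joint call TRBV12-2 and TRBV13-2 had none on the beta chain. TRBV19 clonotypes held 347 of the 701 cells with the evidence (49.5%), and 190 of 283 in ATBI_Isotype (67.1%). The column thus followed the V segment of the beta chain in TRBV19.

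None of the 255 TRBV19 cells with an alpha chain had TRAV1 with TRAJ33. Cells of a clone share a receptor, so the limit is given over the 99 TRBV19 clonotypes with an alpha chain, where a count of 0 allows a share of up to 3.03% (3 clonotypes) for counting error. By library the 0 was of 21, 19, 24 and 35 clonotypes, which allows up to 14.3%, 15.8%, 12.5% and 8.57%. The pair was read in 3 cells of all libraries, 2 in YTBI_aCD49d and 1 in ATBI_Isotype, with TRBV13-3, the joint call TRBV12-2 and TRBV13-2, and TRBV20. A single TRBV19 cell had TRAV1, with TRAJ23, in ATBI_Isotype.

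TRAJ33 itself was read in 51 TRBV19 cells of 6 clonotypes, with TRAV17 in the 44 cells of the 46-cell clone and with TRAV7D-2 in 3 cells, and with TRAV6-6, TRAV9-4, TRAV12D-3 and TRAV10 in 1 cell each. The alpha CDR3 of the TRAV17 clone and of the 3 TRAV1 cells are set side by side, with the bases assigned to germline TRAJ33 in capitals. The TRAV17 chain ends in the same J bases as the invariant chain and begins with another V segment, and its CDR3 is 14 residues long against 12 in both TRAV1 chains of YTBI_aCD49d and 15 in that of ATBI_Isotype.
ATBI_aCD49d, TRAV17, TRBV19 beta: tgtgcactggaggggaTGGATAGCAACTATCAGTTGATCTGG
YTBI_aCD49d, TRAV1, TRBV13-3 beta: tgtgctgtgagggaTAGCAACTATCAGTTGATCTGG
YTBI_aCD49d, TRAV1, joint TRBV12-2 and TRBV13-2 beta: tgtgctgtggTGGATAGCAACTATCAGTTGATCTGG
ATBI_Isotype, TRAV1, TRBV20 beta: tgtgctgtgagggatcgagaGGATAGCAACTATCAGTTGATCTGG

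The invariant alpha chain of natural killer T (iNKT) cells, which recognise lipids on CD1d, is TRAV11 with TRAJ18. It was read in 2 TRBV19 cells, 1 in YTBI_Isotype and 1 in ATBI_aCD49d, each a clonotype of 1 cell with MAIT evidence on the beta chain and iNKT evidence on the alpha chain. The alpha chain had 12 UMIs in the first and 6 in the second, and the TRBV19 chain 4 and 8. That is 2 of 255 TRBV19 cells with an alpha chain (0.784%, 0.0951 to 2.80) against 110 of 1977 cells with other beta chains (5.56%, 4.59 to 6.67).

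Their alpha CDR3 had the same 15 residues, found in 108 of all 116 cells with TRAV11 and TRAJ18, from nucleotide sequences that differed. Their TRBV19 CDR3 differed in J segment, TRBJ2-4 in YTBI_Isotype and TRBJ2-3 in ATBI_aCD49d. Capitals mark bases that matched neither germline segment.
YTBI_Isotype, alpha: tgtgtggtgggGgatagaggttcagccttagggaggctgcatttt
ATBI_aCD49d, alpha: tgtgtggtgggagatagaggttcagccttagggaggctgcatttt
YTBI_Isotype, TRBV19 beta: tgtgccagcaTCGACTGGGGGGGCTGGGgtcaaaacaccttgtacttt
ATBI_aCD49d, TRBV19 beta: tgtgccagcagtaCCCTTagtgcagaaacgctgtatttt

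Cells with more than 1 beta chain, which doublets can give, were 3 of 26 TRBV19 cells in YTBI_Isotype (11.5%, 2.45 to 30.2) against 7 of 226 other cells with a beta chain (3.10%, 1.25 to 6.28). In ATBI_Isotype they were 3 of 187 TRBV19 cells (1.60%) against 1.10% of the others, and in YTBI_aCD49d and ATBI_aCD49d 0 against 0.569% and 2.19%. Without such cells TRBV19 was on 9.50% of the cells and 9.95% of the clonotypes of YTBI_Isotype. Besides the iNKT alpha chains, 2 TRBV19 clonotypes carried iNKT evidence on the beta chain, and both held a second beta chain of another V segment. The alpha chain of the 46-cell clone was also read in 3 cells of ATBI_aCD49d given to other clonotypes.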

How the data were processed

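The authors sorted CD45+ brain cells, prepared libraries with the 10x Genomics 5' immune profiling kit and ran Cell Ranger (7.2.0 in the submitters' processing notes, which list mm9 and mm10). The deposited contig tables give UMIs and reads per chain as counts. The deposited clonotype tables give the cell count of each clonotype and its fraction of the library's cells. The transcriptomes were not analysed here, so the authors' later restriction to T cells by expression was not repeated. Shares were taken over cells or clonotypes with a beta chain, and a clonotype is the deposited one. V, D and J bases came from GRCm38 (GENCODE vM21), matched inward from each end of the CDR3, which was tested on simulated joins and can count a chance match of an added base as germline.

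Each group was 1 library without replicates, so no test was run and no p-value is given. Intervals are exact Clopper-Pearson 95%, Newcombe for differences and binomial for medians. The Newcombe intervals were built from the exact Clopper-Pearson limits of the 2 shares. All intervals cover counting error only, and a count of 0 allows 3. Clonotypes named are the 3 largest of at least 2 cells per library with ties, and any above 1%. Partners named are those of these clonotypes and the 3 most frequent, and residues those held by at least 50% of clonotypes. Position 5, the TRAV families and the large clonotypes of other V segments lie outside this rule and were chosen after their values were seen. Doublets were not removed and no doublet caller was run. The members and lists were chosen with earlier results of these data known. Calculations used Python 3.11.15 (pandas 2.3.3, numpy 2.4.6, scipy 1.17.1), and plots matplotlib 3.10.9.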

Additional observations from a re-analysis of the deposited data

Results flagged for a closer look

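Between isotype and aCD49d Ab libraries, the differences in 3 measures of TRBV19 had opposite signs in young and aged mice. Whether the ages differ was not tested, with 1 library per group, and for none of the 3 did the counting intervals of both ages lie clear of 0. The share of clonotypes was 5.39 points higher in YTBI_Isotype than in YTBI_aCD49d, with an interval of 0.836 to 10.6, while ATBI_Isotype minus ATBI_aCD49d was -2.02 points (-5.26 to 1.28). The share of TRBV19 cells with an alpha chain differed by 1.76 points in the young pair (-20.4 to 21.6) and by -28.1 points in the aged pair (-37.0 to -17.7), isotype minus aCD49d Ab in each. Outside clonotypes of 15 or more cells the aged difference was 7.33 points (-10.1 to 21.4), with 28 of 30 TRBV19 cells in ATBI_Isotype and 43 of 50 in ATBI_aCD49d, the same sign as in young mice. Among cells without TRBV19 an alpha chain was read in 67.9% in ATBI_Isotype and 82.4% in ATBI_aCD49d. In clonotypes of other V segments below 15 cells it was 69.8% and 84.1%, a difference of -14.4 points (-19.2 to -9.55). The share of TRBV19 clonotypes joined to TRBJ2 differed by -5.33 points in young mice (-32.5 to 22.4) and by 1.50 points in aged mice (-24.6 to 26.1). The intervals on alpha recovery count the cells of a clone singly and are too narrow.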

How the results depend on the processing

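Of 150 values recomputed under alternatives, 123 stayed within the counting interval of the reported value, and 8 of the others changed sign. The share of cells moved only with large clones. Without the largest clonotype of the library it was 9.02% in ATBI_Isotype, without the largest TRBV19 clonotype 9.02% there and 4.73% in ATBI_aCD49d, and without the 2 largest 3.54% and 4.01%. ATBI_Isotype minus ATBI_aCD49d was then -0.570, 4.29 and -0.466 points in these 3 settings, and ATBI_Isotype minus YTBI_Isotype -1.59, -0.217 and -5.33. The first setting took TRBV19 cells from ATBI_Isotype only, so it was not like for like. The largest clonotypes of the other libraries were of other V segments. The share there became 9.59% in ATBI_aCD49d and 10.6% in YTBI_Isotype. ATBI_aCD49d minus YTBI_aCD49d was -0.651 points without the largest TRBV19 clonotype and -0.521 without the 2 largest. Denominators, UMI minimums, chain choice, doublets and cells with both chains left the shares and their differences within the interval, although the young difference of 4.09 points (-0.0855 to 8.89) was 4.33 (0.119 to 9.17) at the UMI minimum. Outside clonotypes of 15 or more cells, a setting added after clone sizes were seen, alpha recovery was 93.3% in ATBI_Isotype, its aged difference of -28.1 points became 7.33, and clonotypes of 2 or more cells held 36.7% and 32% of TRBV19 cells in ATBI_Isotype and ATBI_aCD49d. Counted per cell, the median CDR3 length was 15 in both aged libraries, the median inserted stretch 13 bases in ATBI_aCD49d and 7 in ATBI_Isotype, and TRBJ2 38.5% in ATBI_Isotype and 27.1% in ATBI_aCD49d. Requiring the MAIT evidence to name the alpha chain gave 0% in every library, and TRAJ33 with any TRAV gave 46 cells in ATBI_aCD49d. In the clone and per-cell settings, cells of the large clones were left out or given their full weight. Why the values of these clones differed from the rest was not tested. No paired analysis was run, and every group is a single library. In YTBI_Isotype, with 26 TRBV19 cells, a change of 1 cell moves the share by 0.397 points.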
